A study of Mus musculus with 104 samples.

Results

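The heads of normal mouse embryos were compared between embryonic day 8.5 (E8.5) and embryonic day 9.5 (E9.5), across all genes, from RNA of wild-type (WT) embryos. The members were the 6 samples labelled as WT heads of the Kmt2b set, 3 at E8.5 and 3 at E9.5, out of 104 samples in the series, of which 21 were RNA samples. The authors deposited 1 column per stage, named as a merge of its samples, so each stage has 1 value per gene, with no replicate error and no test. The label of the first E8.5 sample points to another table, so it is uncertain whether that sample is in the merged column. The study followed chromatin and RNA through gastrulation in embryos of C57BL/6N mothers and DBA2 fathers, and the WT heads are the controls of embryos lacking Kmt2b. Each head was severed close to the neck and its RNA was made into libraries by Smart-seq2, a method for small RNA amounts that keeps no strand. The embryos' sex, their somite stage, and whether a sample is 1 head or several are not given in the labels used here. A further 2 WT heads at E8.5, the controls of embryos lacking Tet1 and Tet2, served as a guide to how far E8.5 heads vary. They are called the other WT heads below. Their table was normalized separately, so any level set across the tables carries that limit. The merged column of 3 WT epiblasts at E6.5 gave the level before head formation.

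Between these stages the anterior neural folds meet and close, the brain vesicles take their regional identity, and the first neurons leave the cell cycle. Neural crest cells detach from the folds and fill the pharyngeal arches and the face, where they mix with mesoderm under a surface ectoderm that forms placodes. The heart begins to pump primitive red cells from the yolk sac through the head vessels. The embryo passes over the same period from uptake of glucose with heavy lactate output towards oxidative metabolism.

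Levels are given as deposited, in FPKM (fragments scaled to transcript length and to the number of mapped fragments), first at E8.5 and then at E9.5, with the levels in the other WT heads in square brackets between them. A value in round brackets after a pair of levels is the difference. A difference is E9.5 minus E8.5 on the scale of log2(FPKM + 1), after the E9.5 values had been put on the distribution of the E8.5 column rank by rank (quantile rescaling). The rescaling was needed because the 2 columns had different shapes. The E9.5 to E8.5 ratio of values at the same rank was 1.66 at rank 1, 0.883 at rank 2000 and 1.16 at rank 10000. It moved the differences by a median of 0.076 and by more than 0.3 in 56 genes, most of all among the highest values. The pseudocount of 1 makes the difference of a low gene smaller than its ratio.

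Of 10837 genes compared, 1141 (10.5%) were at least 2-fold higher at E9.5 and 1117 (10.3%) at least 2-fold lower, 20.8% in all. The counts of each list below are to be read beside these shares of all genes. At least 4-fold differences were found for 143 genes in each direction. The share of higher genes among those past 2-fold was 50.5%, and 62.9% when upper quartiles in place of ranks set the scale. The median difference of all genes was 0.00 after rescaling and -0.03 as deposited. Between both other WT heads, 111 of 10064 genes (1.1%) differed at least 2-fold, and between the merged E8.5 column and the mean of the other WT heads 24 of 10086 (0.238%). The median absolute difference was 0.53 between the stages and 0.10 to 0.15 between the E8.5 columns. The comparison of stages was thus much wider than the spread of E8.5 heads, while the spread among E9.5 heads is unknown because their values are merged. Against all 3 E8.5 columns at once, 952 genes (8.78%) were at least 2-fold higher at E9.5 and 917 (8.46%) at least 2-fold lower. These comparisons share the E9.5 column. The stage cannot be told apart from the library batch or the processing, since all E9.5 samples are in 1 column, whose distribution differs from that shared by the E6.5 and E8.5 columns. From E6.5 epiblasts to E8.5 heads, a smaller share of the same genes than 20.8% reached 2-fold. Of the genes higher at E9.5, 11.4% were at least 2-fold higher at E8.5 than at E6.5 and 8.15% lower. These shares were 11.7% and 4.83% for the genes lower at E9.5, and 6.33% and 4.07% for the remaining 8579. What the shape of the E9.5 column adds to the count was not tested.

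**Figure D1:**
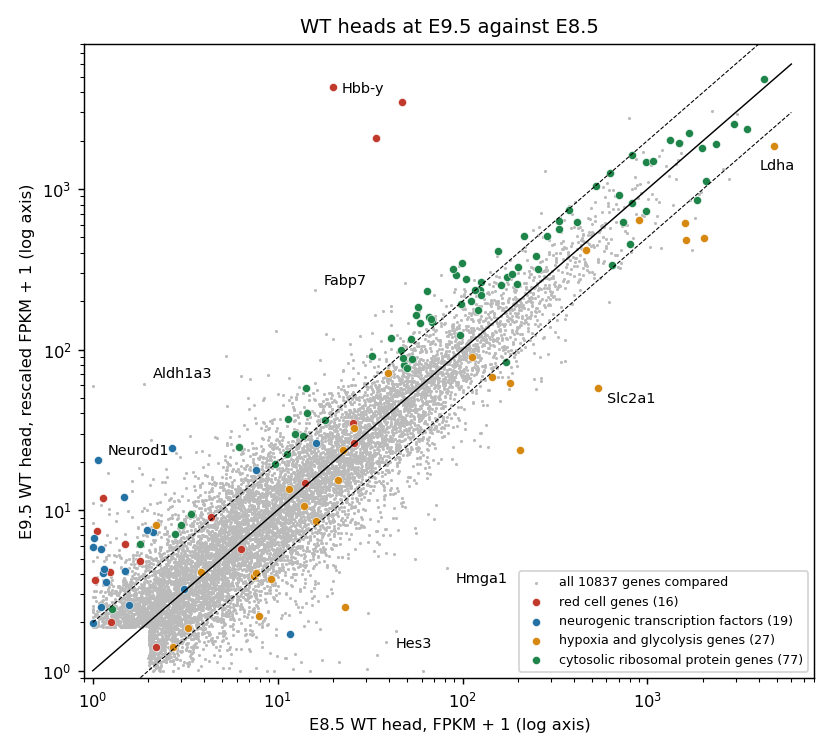
Each point is 1 of 10837 genes, with its FPKM + 1 in WT heads at E8.5 on the x axis and its rescaled FPKM + 1 at E9.5 on the y axis, both on log axes. The solid line marks equal values and the dashed lines 2-fold differences. Hbb-y and the other embryonic globins stand farthest above the lines, and Hes3, Hmga1 and Slc2a1 stand far below them.

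Red cell genes had the largest differences in the higher direction. Embryonic globin chains carry oxygen in primitive red cells, which form in the yolk sac and reach the head by blood flow. Hbb-y, the embryonic beta-type chain, was 18.8 FPKM at E8.5, 0.104 and 0 in the other WT heads and 7391 at E9.5. The difference was 7.76, and 8.54 without rescaling. For Hbb-bh1, a second embryonic beta-type chain, the level was 45.9 [0 and 0] and 5392 (difference 6.21). Hba-x, the embryonic alpha-type chain, was at 33.0 [0.111 and 0] and 2979 (difference 5.93). All E8.5 columns lay far below E9.5 for these 3 genes, and the other WT heads held next to no globin RNA. The 3 globins made up 3.21% of the summed FPKM at E9.5 and 0.0216% at E8.5. Of the red cell list, 16 of 30 genes could be compared, 10 were at least 2-fold higher and 0 lower, with a median difference of 1.58 beside 0.00 for all genes. The median was 0.53 against the second of the other WT heads, 1.02 against the mean of both, 0.67 with no minimum, 0.62 with a pseudocount of 5 and 2.66 with a pseudocount of 0.1. Other members were the adult-type globin Hbb-b1 (0.138 and 10.3, difference 3.39) and the tropomodulin gene Tmod1 (0.489 and 5.22, 2.06). Alas2, the first enzyme of haem synthesis in red cells, was 0.237 and 3.19 (1.74). Fech (0.08), the last enzyme of haem synthesis, Bpgm (0.45) and Lmo2 (-0.14) did not reach 2-fold. In bulk tissue, more cells of a type and more RNA per cell cannot be told apart.

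Because the embryonic globins had the largest differences, the DNA just upstream of their starts is shown for Hbb-y and Hba-x, from RefSeq on build GRCm38.p6, which is not the mm9 build of the deposited files. Each line holds the 150 bases before the first annotated start, 5′ to 3′ on the gene's own strand. Capitals mark GATAA (the core bound by GATA factors), CACCC (the box bound by Klf1 and its relatives) and CCAAT, searched on both strands. Hbb-y lies on the minus strand at chr7:103853208-103853357 and holds 1 CACCC and 1 CCAAT.
Hbb-y: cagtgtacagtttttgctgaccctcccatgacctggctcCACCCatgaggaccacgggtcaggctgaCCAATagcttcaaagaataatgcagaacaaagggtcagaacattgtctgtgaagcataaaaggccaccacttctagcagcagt
Hba-x lies on the plus strand at chr11:32276450-32276599 and holds 1 GATAA and 1 CACCC.
Hba-x: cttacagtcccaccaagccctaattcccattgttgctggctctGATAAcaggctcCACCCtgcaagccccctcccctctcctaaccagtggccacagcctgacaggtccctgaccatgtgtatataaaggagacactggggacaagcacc
Over the 250 bases upstream, GATAA was found in 6 of the 9 red cell genes with an entry and in 14.1% of all 8652 different genes with one. CACCC was found in 7 of 9 and in 56.0% of all, and CCAAT in 4 of 9 and in 37.9% of all. A match describes letters only and shows no binding.

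Genes of neuron formation had the highest median difference among the lists with at least 5 genes compared. Of 32 transcription factors that start or mark neurogenesis, 19 could be compared. At E9.5, 14 of them were at least 2-fold higher and 1 was lower, with a median of 1.78. Against all 3 E8.5 columns 13 were higher and 1 lower. A gene near 0 at E8.5 enters these counts only through its E9.5 level. With no minimum the median was 1.07 over 28 genes. Neurod1, a basic helix-loop-helix factor of young neurons, was 0.0696 at E8.5, 0.0195 and 0 in the other WT heads and 17.6 at E9.5, a difference of 4.26. The POU factor Pou3f2 was 1.69 [2.09 and 0.604] and 21.0 (difference 3.18), and its relative Pou3f3 0.478 [0.610 and 0.303] and 10.4 (3.04). The E9.5 level lay far above every E8.5 column for these factors, and Neurod1 was close to 0 in all E8.5 columns. Pou4f1, a factor of sensory neurons, was 0.959 and 6.43 (1.94). Ebf2 was 1.11 and 6.17 (1.78), and the motor neuron factor Isl1 6.68 and 15.3 (1.21). Lhx5 was the member that went the other way. This LIM-homeobox gene of the forebrain stood at 10.6 [11.7 and 11.2] and 0.838, a difference of -2.78.

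Genes for the structure of neurons were higher in part. Of 40 such genes 24 were compared, 8 of them at least 2-fold higher and 2 lower (median 0.70). The median was 0.18 over 39 genes with no minimum. Elavl4, an RNA-binding protein of differentiated neurons, was 0.849 [0.931 and 0.546] and 14.4 (difference 3.19). Dcx, a microtubule protein of migrating neurons, was 0.0380 [0.0246 and 0.00392] and 2.57 (1.75). The dendrite protein gene Map2 was 2.16 and 7.23 (1.41), and the growth cone gene Gap43 16.9 and 35.1 (1.19). Tubb3, the neuronal beta-tubulin, was 52.4 [56.2 and 58.9] and 38.2 (difference -0.27). Stmn2, a tubulin-binding protein gene, was 21.3 [27.6 and 28.1] and 26.5 (0.46). Crmp1 (36.6 and 11.5, -1.50) and the neurofilament gene Ina (6.28 and 0.913, -2.04) were lower at E9.5, and Elavl3 was under 1 FPKM at both stages.

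Of 21 neural progenitor genes compared, 8 were at least 2-fold higher and 2 lower (median 0.59). Fabp7, a lipid-binding protein of radial glia, was 14.9 at E8.5, 13.4 and 9.12 in the other WT heads and 244 at E9.5, a difference of 3.88. The intermediate filament gene Vim was 36.4 [43.3 and 26.0] and 173 (2.21), and Sox2, which keeps progenitors undifferentiated, 8.30 [9.95 and 8.10] and 30.1 (1.91). The filament gene Nes was 0.944 and 3.49 (1.19). Each of these E9.5 levels was above all 3 E8.5 columns. Sox1 (3.49 and 6.96, 0.85) and Pax6 (19.5 and 22.4, 0.35) did not reach 2-fold. The N-cadherin gene Cdh2 was 15.5 and 8.11 (-0.81). Axon guidance genes had a median of 0.38, with 5 of 27 higher and 2 lower, among them the semaphorin Sema3a (1.01) and the ephrin Efnb1 (-1.66). Of 8 glial genes compared, 1 was higher and 1 lower, 12.5% each way beside 10.5% and 10.3% of all genes.

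**Figure D2:**
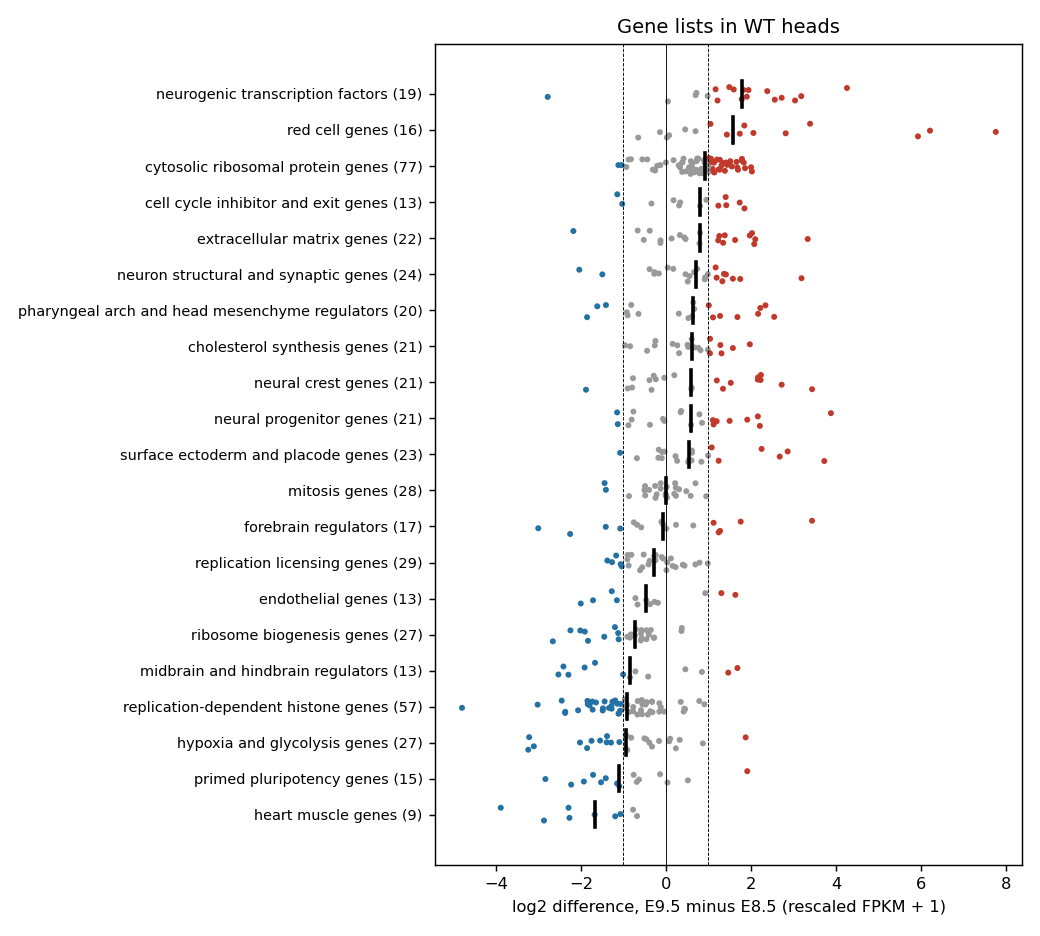
Each point is 1 compared gene of the list named on the y axis (number of genes in brackets), at its log2 difference between E9.5 and E8.5 on the x axis. Red points are at least 2-fold higher at E9.5, blue points at least 2-fold lower, and the black bar is the list's median. The bars run from 1.78 for neurogenic transcription factors to -1.68 for heart muscle genes.

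Notch signalling holds neighbouring cells as progenitors through Hes repressors. Of 16 compared Notch genes, 2 were at least 2-fold higher and 2 lower (median 0.33). That is 12.5% each way, near the 10.5% and 10.3% of all genes. Hes3, a repressor of the early neural tube and of the boundary between midbrain and hindbrain, had the largest difference in the lower direction of all genes named by size. It was 37.6 at E8.5, 51.5 and 38.7 in the other WT heads and 0.607 at E9.5, a difference of -4.69. Hes1 was 53.05 and 25.4 (-0.88), and Hes5 6.41 and 4.75 (-0.38), so neither reached 2-fold after rescaling. For Hes1 this depends on the rescaling, since its levels as deposited are more than 2-fold apart. The feedback inhibitor Nrarp was 1.48 [1.32 and 0.765] and 15.5 (difference 2.86), and Rbpj, the DNA-binding partner of the Notch receptors, 6.83 and 15.3 (1.19). The ligand gene Jag1 was 7.72 and 11.4 (0.59).

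Regional genes of the brain split. Among forebrain regulators 5 of 17 were at least 2-fold higher and 4 lower, with a median of -0.07. Hesx1, a repressor of the earliest forebrain and later of the pituitary, was 69.4 [66.1 and 99.9] and 7.56 (difference -3.003). Fezf1, a zinc finger factor of the early forebrain, was 23.1 [25.1 and 25.3] and 4.11 (-2.25). Otx2, which specifies fore- and midbrain, was 87.4 [100.2 and 81.1] and 28.7 (-1.41), and Otx1 22.8 and 9.76 (-1.07). These 4 early genes were lower at E9.5 than in every E8.5 column. The nuclear receptor gene Nr2f1 was 5.32 [5.38 and 2.14] and 62.2, a difference of 3.44. Six3 (5.45 and 5.19), Lhx2 (7.68 and 7.52) and Sp8 (25.3 and 21.0) kept similar levels, with differences of -0.07, 0.01 and -0.11.

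The list of midbrain and hindbrain regulators had 2 of 13 genes higher and 6 lower (median -0.84). Most of the lower genes belong to the organizer at the border of both regions, which patterns them with Fgf and Wnt signals. Fgf15 was 39.7 [37.6 and 34.3] and 5.97 (difference -2.53), and Wnt1 6.07 [8.59 and 9.92] and 0.410 (-2.41). The homeobox genes Gbx2 (6.60 and 1.18, -1.91) and En1 (5.83 and 1.303, -1.67) and the paired-box gene Pax8 (9.43 and 1.27, -2.29) were lower too. Fgf8 itself was 10.8 [20.3 and 9.79] and 4.90 (-1.01), and its spread among E8.5 columns was wide. The gene Irx2 was 2.48 [2.76 and 1.83] and 9.66 (1.68).

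Hox genes set position along the body from the hindbrain backwards, in the order of their paralog groups. Of the 39 Hox genes, 36 were under 1 FPKM at both stages. The 27 genes of paralog group 5 and above reached at most 0.109 FPKM at E8.5 and 0.0447 at E9.5, which leaves the trunk genes at or near 0. The 3 genes compared are expressed in hindbrain segments. Hoxb1, the gene of the fourth segment, was 0.223 at E8.5, 0 and 0.595 in the other WT heads and 8.24 at E9.5. Hoxa2 was 1.053 [1.22 and 1.39] and 12.3, and Hoxb2 0.911 [0.413 and 2.41] and 7.17. Their differences were 2.96, 2.80 and 2.12, and each was above all 3 E8.5 columns.

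In the dorsoventral list 3 of 14 genes were higher and 1 lower (median -0.19). Dbx1, a homeobox gene of interneuron progenitors, was 0.631 [0.372 and 0.595] and 13.2 (difference 3.23), and Nkx2-9, a ventral gene, 21.2 [29.8 and 22.3] and 4.17 (-2.12). The dorsal genes Msx1 (0.60), Msx2 (-0.34) and Pax3 (-0.39) did not reach 2-fold. Of 10 eye genes 4 were higher and 2 lower (median 0.14). Aldh1a3, which makes retinoic acid in the optic and nasal region, was 0.885 [0.239 and 0.00672] and 53.9, a difference of 5.03. The small heat shock protein gene Cryab, later abundant in the lens, was 2.88 [1.63 and 3.25] and 20.2 (2.60). Rax, the eye field gene, was 7.77 [10.7 and 9.21] and 1.08 (-2.19), while Six6 was 2.24 [1.71 and 0.475] and 5.78 (1.08).

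**Figure D3:**
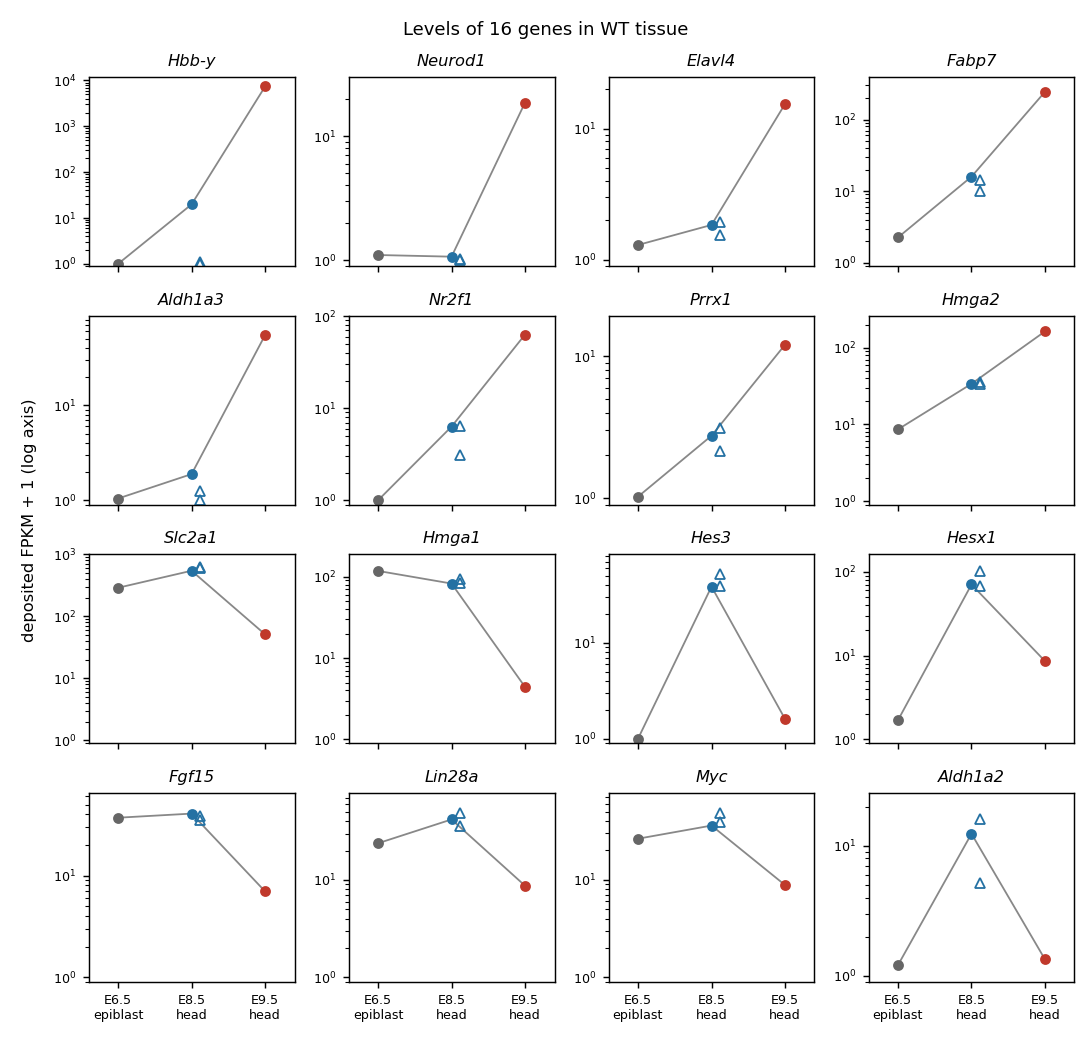
Levels of 16 genes as deposited FPKM + 1 (y axes, log scale) for WT tissue by stage, with E6.5 for epiblasts and E8.5 and E9.5 for heads (x axes). Filled circles are the merged columns and open triangles the 2 other WT heads, which were normalized separately. Hes3, Hesx1 and Aldh1a2 peak at E8.5, and Hbb-y, Neurod1 and Aldh1a3 are highest at E9.5.

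Neural crest genes had 9 of 21 members at least 2-fold higher and 1 lower (median 0.60). The median was 0.27 against the second of the other WT heads and 0.39 against the first, 0.27 with length groups centred, 0.079 with no minimum and 1.34 with a minimum of 5 FPKM. Crabp1, a retinoic acid binding protein of migrating crest and hindbrain, was 278 [461 and 234] and 1505 (difference 2.23). Nr2f2, the relative of Nr2f1, was 5.83 [7.62 and 3.29] and 27.9 (2.23), and the endothelin receptor gene Ednrb 1.598 [1.47 and 2.09] and 9.96 (2.16). The AP-2 genes were higher as well, Tfap2a at 1.52 and 6.15 (1.52) and Tfap2b at 2.86 and 8.44 (1.34). Not all early crest genes were higher. Snai1, a repressor of E-cadherin in cells that leave an epithelium, was 17.9 [16.03 and 18.0] and 4.21 (-1.88). Sox10, the marker of early migrating crest, was 3.23 [3.27 and 2.96] and 1.42 (-0.90), and Foxd3 was under 1 FPKM in both merged columns. The Snai1 relative Snai2 was 4.57 and 10.99 (1.20).

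Regulators of pharyngeal arch and head mesenchyme had 8 of 20 genes higher and 3 lower (median 0.63, and 0.37 over 35 genes with no minimum). The homeobox gene Prrx1 was 1.75 [1.16 and 2.10] and 11.04 (difference 2.22), and Twist1, a mesenchymal factor of the crest and mesoderm, 1.14 [1.602 and 1.51] and 8.31 (2.17). The facial gene Alx1 (2.09 and 8.58, 1.68) and Foxc1 (0.977 and 8.67, 2.34) were higher as well. Dlx5, which marks the anterior border of the neural plate and then the arches, was 16.3 and 7.90 (-0.92). Matrix genes made by such mesenchyme had 10 of 22 higher and 1 lower (median 0.80), and these 10 were also above all 3 E8.5 columns. With no minimum the matrix median was 0.21 over 33 genes. Col3a1 was 0.136 [0.223 and 0.0153] and 9.87 (difference 3.33), Col1a2 0.746 and 5.78 (1.97), and the proteoglycan gene Lum 2.20 and 11.8 (2.10). Fibulin 1 (Fbln1) went the other way at 23.2 [28.2 and 21.9] and 4.39 (-2.18), and fibronectin (Fn1) differed by 0.43.

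Surface ectoderm and placode genes had 6 of 23 higher and 1 lower (median 0.54). Trp63, the master regulator of stratified epithelium, was 0.333 [0.554 and 0.171] and 7.34 (difference 2.68). The desmosome-associated gene Perp was 1.95 [2.30 and 1.59] and 18.6 (2.86), and the Bmp and Wnt antagonist Sostdc1 1.06 [1.79 and 0] and 23.5 (3.72). The general epithelial genes did not reach 2-fold, with Epcam at 26.7 and 35.9 (0.60), Cdh1 at 3.01 and 4.85 (0.53) and Krt8 at 53.01 and 41.0 (-0.17). The placode genes Eya1 (0.61) and Eya2 (0.83) were above 0 and under 2-fold.

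Retinoic acid is made from retinol by Rdh10 and the Aldh1a enzymes and broken down by the Cyp26 enzymes, and it patterns hindbrain, eye and face. All 19 listed genes were compared, with 6 at least 2-fold higher, 5 lower and a median of 0.05. Against all 3 E8.5 columns only 3 were higher and 4 lower. The enzymes of the last step changed places in level. Aldh1a2, the enzyme of trunk mesoderm, was 11.4 [14.97 and 4.14] and 0.336 (difference -3.29), against the 53.9 FPKM of Aldh1a3 at E9.5. Rdh10 was 5.85 and 6.02 (0.05). Of the degrading enzymes, Cyp26c1 was 5.30 [6.32 and 4.81] and 0.438 (-2.22), and Cyp26a1 7.58 and 3.57 (-0.92). The receptor gene Rarg was 5.803 [4.01 and 6.79] and 0.683 (-2.13). The cellular binding proteins stood at the highest levels of the list, with Crabp1 given above and Crabp2 at 406 [431 and 304] and 1033 (1.03).

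Among Wnt genes 10 of 33 were higher and 5 lower (median 0.23), and against all 3 E8.5 columns 6 were higher and 5 lower. Sp5, a target of canonical Wnt signals, was 6.67 [7.29 and 6.97] and 0.756 (difference -2.25), Nkd1 13.3 [12.4 and 15.3] and 1.76 (-2.44), and the secreted inhibitor Dkk1 14.8 [16.9 and 19.3] and 2.38 (-2.27). The secreted antagonist Frzb was 16.9 and 3.85 (-1.90), whereas its relative Sfrp2 was 26.3 and 65.6 (1.39). The receptor genes Lgr4 (1.31) and Fzd7 (1.07) were at least 2-fold higher.

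In the Fgf list 2 of 21 genes were higher and 4 lower (median -0.10), and against all 3 E8.5 columns 1 was higher and 2 lower. The receptor genes diverged, with Fgfr3 at 0.932 [0.636 and 0.998] and 5.89 (difference 1.85), Fgfr2 at 6.01 and 11.5 (0.92) and Fgfr1 at 12.5 [10.7 and 14.1] and 5.02 (-1.18). The feedback and target genes Spry2 (0.18), Dusp6 (-0.10) and Etv5 (-0.40) did not reach 2-fold. In the Bmp list 2 of 15 were higher and 2 lower (13.3% each way, median -0.16). The ligand gene Bmp5 was 7.197 [6.30 and 8.67] and 1.04 (-2.11), and Bmp4 3.08 and 7.15 (1.02). The target Id4 was 0.761 [0.554 and 0.466] and 6.68 (2.14), while Id1 (-0.13), Id2 (0.71) and Id3 (-0.49) did not reach 2-fold.

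In the Shh list 3 of 11 were higher and 3 lower (median 0.23). Shh itself, the ligand of floor plate and ventral forebrain, was 0.138 and 2.53 (difference 1.59). Its co-receptor gene Gas1 was 9.09 [7.96 and 7.46] and 45.3 (2.39) and Cdon 1.07 and 5.21 (1.57). Sufu, the inhibitor that holds Gli factors in the cytoplasm, was 12.4 [10.5 and 11.9] and 0.184, a difference of -3.55. It was at 8.62 FPKM in E6.5 epiblasts, so only the E9.5 column was near 0. Whether that value is a failed estimate of the row was not tested. Gli3 (0.89) and Smo (0.58) differed by less than 2-fold.

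Of 15 compared genes of the primed pluripotent epiblast, 1 was at least 2-fold higher at E9.5 and 8 lower, 6 of them against all 3 E8.5 columns (median -1.10). The 1 higher gene was Sox2, which the brain also uses. Zscan10, a partner of the pluripotency factors, was 55.9 in E6.5 epiblasts, 13.6 at E8.5, 11.6 and 21.5 in the other WT heads and 1.20 at E9.5 (difference -2.83). Dnmt3b, the methyltransferase of the early embryo, was 614 in epiblasts, then 55.2 [47.6 and 78.0] and 12.6 (-1.93). Pou5f1, the defining gene of pluripotency, was 245 in epiblasts, 3.91 at E8.5, 1.42 and 5.24 in the other WT heads, and is listed at 0 at E9.5. Eras, a Ras protein of embryonic stem cells, was 43.3 in epiblasts, then 42.9 [36.7 and 40.8] and 0.904 (difference -4.64). Unlike the genes above, the row of Eras was as high in E8.5 heads as in epiblasts. Eras overlaps Pcsk1n, and without strand their reads cannot be told apart, so this level may not be that of Eras. Foxh1, the partner of Smad proteins in Nodal signalling, was 20.4 [13.4 and 40.7] and 0.170 (-4.24). Sall4 (93.5 and 53.5, -0.63) did not reach 2-fold. All 23 germline genes found in the table were under 1 FPKM at both stages.

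The heterochronic genes time development through the balance of Lin28 proteins and let-7 microRNAs. Of 15 compared, 3 were higher and 4 lower (median 0.28). Lin28a, which blocks let-7 maturation, was 40.9 [35.2 and 48.1] and 7.72 (difference -2.23), and the let-7 target Trim71 23.9 [23.0 and 25.6] and 7.45 (-1.52). Lin28b stood at 30.7 and 39.0 (0.52). Both high mobility group genes went in opposite directions. Hmga1 was 81.2 [91.6 and 83.6] and 3.41 (difference -4.24), and Hmga2 32.8 [34.9 and 32.9] and 162 (2.28). The value of Hmga1 is uncertain, since its reads can be shared with similar sequences. The fetal growth genes H19 (15.97 and 81.6, 2.33) and Igf2 (14.99 and 33.6, 1.29) were higher. The same held for other imprinted growth regulators, with Plagl1 at 1.51 and 13.9 (2.68), Grb10 at 31.3 and 125 (1.97) and the cell cycle inhibitor Cdkn1c at 11.2 and 37.7 (1.85). Over the imprinted list 7 of 30 were higher and 2 lower (median 0.45).

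Of 27 compared genes of the hypoxia and glycolysis list, 1 was at least 2-fold higher and 11 were lower, with a median of -0.93. Against all 3 E8.5 columns 10 were lower. Slc2a1, the glucose transporter of most cells, was 542 at E8.5, 624 and 603 in the other WT heads and 50.1 at E9.5, a difference of -3.24. Pfkl, a subunit of the committing enzyme phosphofructokinase, was 204 [216 and 251] and 20.5 (-3.11). Slc16a3, the exporter of lactate, was 22.2 [27.2 and 31.5] and 1.63 (-3.22). The 3 genes sit at entry, commitment and exit of the pathway, and their E8.5 columns lay close together. Between them, aldolase (Aldoa) was 2017 [1890.1 and 2088] and 570.1 (difference -2.02), and triose phosphate isomerase (Tpi1) 1617 [1622 and 1601] and 546 (-1.75). Ldha, the lactate dehydrogenase subunit that favours lactate formation, had the highest level of the list at 4859 [3451 and 5158] and 2134 (-1.39). Pgam1 was 1601 [1464 and 1622] and 774 (-1.38), whereas Gapdh (-0.51) and Pgk1 (-0.16) did not reach 2-fold. Vegfa, a hypoxia target that drives vessel growth, was the 1 higher gene at 1.19 [0.754 and 0.744] and 6.92 (1.87). Summed FPKM of the listed genes were 12845 at E8.5, 11288 and 13566 in the other WT heads, and 5770.1 at E9.5.

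**Figure D4:**
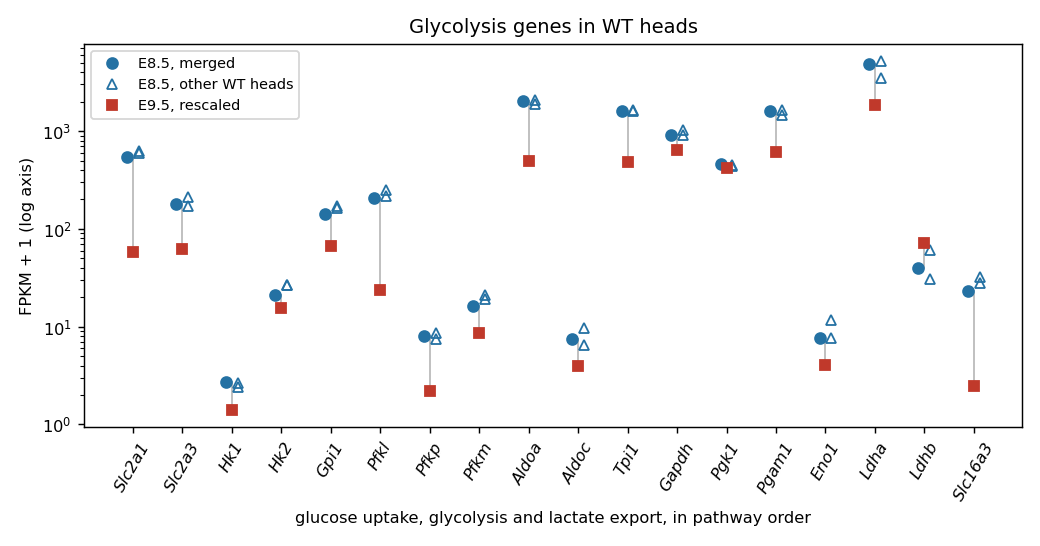
Levels as FPKM + 1 (y axis, log scale) of 18 genes in pathway order (x axis) in WT heads. Blue circles are the merged E8.5 column, open triangles the 2 other WT heads and red squares the rescaled E9.5 column. Squares lie well below the E8.5 symbols for Slc2a1, Pfkl and Slc16a3 and next to them for Pgk1.

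The upstream DNA of these genes is shown because hypoxia-inducible factors (HIF) and Myc, which both drive this pathway, bind E-box-like letters that overlap ACGTG. Capitals mark ACGTG and its reverse complement CACGT, so both strands were searched, and the palindrome CACGTG holds both. Each line gives the 150 bases before the first start annotated by RefSeq on GRCm38.p6, on the gene's own strand. Slc2a1 is on the plus strand at chr4:119108595-119108744 and has 1 match.
Slc2a1: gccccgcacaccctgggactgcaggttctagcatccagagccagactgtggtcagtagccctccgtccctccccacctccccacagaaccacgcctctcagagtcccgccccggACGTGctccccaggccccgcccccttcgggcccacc
Ldha is on the plus strand at chr7:46845654-46845803 and has 3 capital stretches, of which 2 are the palindrome.
Ldha: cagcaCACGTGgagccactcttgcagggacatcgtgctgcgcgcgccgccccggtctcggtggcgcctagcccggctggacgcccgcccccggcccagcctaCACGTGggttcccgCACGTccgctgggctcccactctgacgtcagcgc
Slc16a3 is on the plus strand at chr11:120948917-120949066 and has 2 matches.
Slc16a3: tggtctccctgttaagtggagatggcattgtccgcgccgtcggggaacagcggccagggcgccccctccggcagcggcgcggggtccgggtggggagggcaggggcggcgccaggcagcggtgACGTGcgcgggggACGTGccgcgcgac
Pfkl is on the minus strand at chr10:78009808-78009957 and has none in this window, as a comparison.
Pfkl: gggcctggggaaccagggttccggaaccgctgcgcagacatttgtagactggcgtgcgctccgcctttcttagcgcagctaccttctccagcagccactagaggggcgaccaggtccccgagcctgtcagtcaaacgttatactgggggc
Over the 250 bases upstream, ACGTG was found in 12 of 25 genes of the list with an entry and in 22.7% of all 8652. It was found in 5 of the 10 that were at least 2-fold lower and in 7 of the 15 that were not. In the 150 bases of Aldoa and Tpi1, which are not printed, there was none, as in Pfkl. Pgam1, also not printed, had 1 match.

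Myc, which drives glycolysis and ribosome production, was 35.1 [47.8 and 38.6] and 7.83 (difference -1.99), and Mycn 58.5 and 31.8 (-0.68). Ribosome biogenesis genes had 0 of 27 higher and 9 lower (median -0.73). Those 9 were also below all 3 E8.5 columns. Summed FPKM of the list were 3662 at E8.5, 3749 and 3698 in the other WT heads and 3565 at E9.5. Mybbp1a, a nucleolar protein gene, was 90.7 [83.5 and 93.5] and 16.6 (difference -2.25), the rRNA methyltransferase gene Nop2 87.7 and 21.3 (-1.83), and Bop1, needed for the large subunit, 63.0 and 14.6 (-1.91). Genes for the ribosomal proteins themselves went the other way, with 31 of 77 higher and 2 lower (median 0.92). Rps27a was 88.1 [62.1 and 65.1] and 361 (1.83), Rps16 91.6 [93.1 and 74.5] and 326 (1.66), and Rpl10 98.9 [65.5 and 89.1] and 398 (1.79). Many of these genes have near-identical processed copies that can share their reads, so single values are uncertain.

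Oxidative phosphorylation subunits had 9 of 73 higher and 3 lower (median 0.24), beside 10.5% and 10.3% of all genes. Examples are Atp5l (75.4 and 327, 1.94) and Cox5b (54.9 and 165, 1.58). Ndufa4l2, a hypoxia-induced relative of a complex subunit, was 10.1 [14.6 and 11.5] and 0.260 (-3.21). Mitochondrial ribosomal proteins had 4 of 76 higher and 0 lower (median 0.09). Cholesterol synthesis genes had 6 of 21 higher and 0 lower (median 0.60), and these 6 were above all 3 E8.5 columns. Sc4mol, a sterol oxidase, was 16.8 [12.2 and 11.6] and 64.0 (difference 1.97).

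Of 28 mitosis genes, 0 were higher and 2 lower (median -0.01), namely Cdc20 (325 and 118, -1.44) and Plk1 (127 and 41.0, -1.41). Of 29 replication licensing genes 0 were higher and 5 lower (median -0.28). The helicase subunits Mcm3 (176 and 61.5, -1.38) and Mcm5 (162 and 61.0, -1.27) were among the 5, and the sliding clamp Pcna was 181 and 409 (0.98). As deposited the Pcna levels are more than 2-fold apart, so that it stays under 2-fold depends on the rescaling. Genes of cell cycle exit had 5 of 13 higher and 2 lower (median 0.80). Besides Cdkn1c these included the antiproliferative genes Btg2 (3.39 and 12.6, 1.73) and Btg1 (5.43 and 14.6, 1.40) and the retinoblastoma gene Rb1 (2.73 and 7.55, 1.23). Replication-dependent histone genes had 0 of 57 higher and 26 lower (median -0.92). These genes are near-identical copies that can share reads, so only the group is described, and its summed FPKM were 2779.6 at E8.5, 3369.5 and 3078 in the other WT heads and 1683 at E9.5.

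Of 21 genes of the H3K4 methyltransferase complexes, 0 were higher and 2 lower (median 0.09), and the Kmt2b gene itself, listed as Wbp7, was 0.6003 and 1.20. Men1, the menin subunit, was 21.2 [22.2 and 19.8] and 7.77 (difference -1.31). Polycomb genes had 3 of 21 higher and 2 lower (median 0.40). These are 14.3% and 9.52%, beside 10.5% and 10.3% of all genes. With no minimum the Polycomb median was 0.079 over 28 genes. Bmi1, a subunit of the complex that ubiquitinates H2A, was 6.46 [5.53 and 4.86] and 39.1 (difference 2.61), and its paralog Pcgf2 6.54 [7.01 and 7.204] and 2.07 (-1.36). Suz12, of the complex that methylates H3K27, was 9.33 [8.77 and 8.85] and 25.1 (1.49), and the catalytic Ezh2 65.5 and 107 (0.70). Of 13 DNA methylation genes 2 were higher and 1 lower (15.4% and 7.69%, median 0.20). The reader Mbd2 was 0.354 [0.590 and 0.546] and 8.34 (2.83), while Dnmt1 (0.20), Uhrf1 (-0.26) and Dnmt3a (-0.14) did not reach 2-fold.

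Markers of other tissues were read as well. Heart muscle genes had 0 of 9 higher and 7 lower (median -1.68). Myl4, a myosin light chain of the early heart, was 16.3 [6.37 and 22.8] and 0.218 (difference -3.88), and Myl7, of the atria, 39.4 [14.4 and 103] and 10.8 (-1.68). The E8.5 heads themselves varied, since the summed FPKM of the list were 119 in the merged column, 45.4 and 239 in the other WT heads and 29.1 at E9.5. Only 4 of the 9 were at least 2-fold below all 3 E8.5 columns. Whether the tissue kept at the cut differed between the stages was not tested. Endothelial genes had 2 of 13 higher and 4 lower (median -0.46). Etv2, which starts the endothelial lineage, was 7.57 [5.10 and 13.1] and 1.29 (difference -2.002), Fli1 1.84 [1.48 and 2.02] and 7.60 (1.63), and the sialomucin gene Emcn 2.84 [1.95 and 1.22] and 8.17 (1.304). The defining markers Pecam1 (0.380 and 0.398) and Cdh5 (0.191 and 0.392) were under 1 FPKM. Of the macrophage markers, Csf1r, Ptprc and Cx3cr1 were near 0 at both stages, and Tyrobp was listed at 0 at E8.5 and at 1.77 at E9.5. Of 18 listed genes of the visceral endoderm, 3 could be compared in these heads. Afp was at 0 at both stages, Apoa1 and Ttr were under 1 FPKM, and Apoe was 54.4 [61.8 and 69.8] and 6.64 (-2.84). Xist, the RNA of the inactive X chromosome, was 9.17 [7.80 and 9.05] and 8.08, and the Y-linked Ddx3y 2.21 [0.0290 and 0.0119] and 3.20. Both merged head columns thus hold RNA of both sexes, while the other WT heads held next to no Ddx3y RNA. In the E6.5 epiblasts Xist was 0.0954 and Ddx3y 21.9. The columns set beside the merged heads thus differ from them in sex-linked RNA, and the part of sex in other genes was not tested.

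Among the genes with the largest differences that belong to no list, Foxd4, a forkhead factor of early neural ectoderm, was 11.1 [13.4 and 16.8] and 0.0461 (difference -3.55). The kinase gene Pim2 was 54.0 [32.9 and 89.5] and 4.03 (-3.46), and Med25, a Mediator subunit, 29.9 [31.1 and 29.5] and 1.43 (-3.76). Med25 was at 30.1 FPKM in E6.5 epiblasts, so it was low in the E9.5 column alone. As for Sufu, a failed estimate of that value was not tested. Dusp5, a phosphatase of ERK, was 9.97 [5.51 and 8.70] and 0.259 (-3.19). On the higher side, S100a11, a calcium-binding protein, was 8.80 [8.93 and 4.44] and 128 (3.73), and Pdgfc, a growth factor of the face, 0.966 [0.799 and 0.509] and 19.5 (3.52). Ppp1r17, a phosphatase inhibitor, was 0.107 [0.0979 and 0.0539] and 9.36 (3.29), and the gene 2610017I09Rik 4.23 [4.72 and 4.41] and 90.0 (4.13). Crkl, an adaptor protein gene, was 16.1 and 0.958 (-3.23), but a second row of the same gene under a RefSeq accession moved the other way, and with both added the difference was 0.12. Its difference is therefore not counted as a result. Several genes named here overlap a neighbour in the RefSeq annotation, so that their reads cannot be told apart without strand. Among these are Hes3 with Gpr153, Slc2a1 with Gm12867 and Gm52706, Myl4 with Cdc27, 2610017I09Rik with Gm46091, Eras with Pcsk1n, Foxh1 with Kifc2, Slc16a3 with Csnk1d, Ndufa4l2 with Shmt2, and Nr2f1 with A830082K12Rik.

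A further 37 genes were at 1 FPKM or more in 1 column and listed at 0 in the other, 23 at E8.5 and 14 at E9.5, and no difference was computed for them. Some are genes of a tissue or cell type. The heart factor Nkx2-5 was 2.29 at E8.5 and at 0 at E9.5, the neuron factor Nhlh2 was at 0 and 3.34, and the hormone gene Sst at 0 and 17.8. For Nkx2-5, as for the heart muscle genes, a difference in the tissue kept at the cut was not tested. The platelet gene Pf4 was at 0 and 23.3, and in the other WT heads at 0.116 and 0.182. Others are widely active genes, for which a 0 can be a failed estimate. Tpm3 was at 0 at E8.5, 116 and 48.5 in the other WT heads and 105 at E9.5. Otud4 was at 21.3, 16.7 and 19.98 and 0 at E9.5.

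Gene length moved with the difference. Over 10798 genes with a genomic length, Spearman's rho across genes was 0.147, a description in which all points share 2 columns. The median difference was -0.16 in genes from 4.03 to 7.38 kb and 0.30 in genes above 114.6 kb, out of 10 equal groups by length. Between the other WT heads and the merged E8.5 column the medians of these groups ran from 0.03 to -0.03. Centring each length group left 2165 genes at least 2-fold different, 1093 of them higher. This centring used 20 equal groups by length. Medians of some lists moved more with it, from 0.40 to 0.095 for Polycomb genes, from 0.38 to 0.12 for axon guidance genes, from 0.60 to 0.27 for neural crest genes and from 0.28 to 0.087 for heterochronic genes. The part of length in the difference of single genes was not tested.

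**Figure D5:**
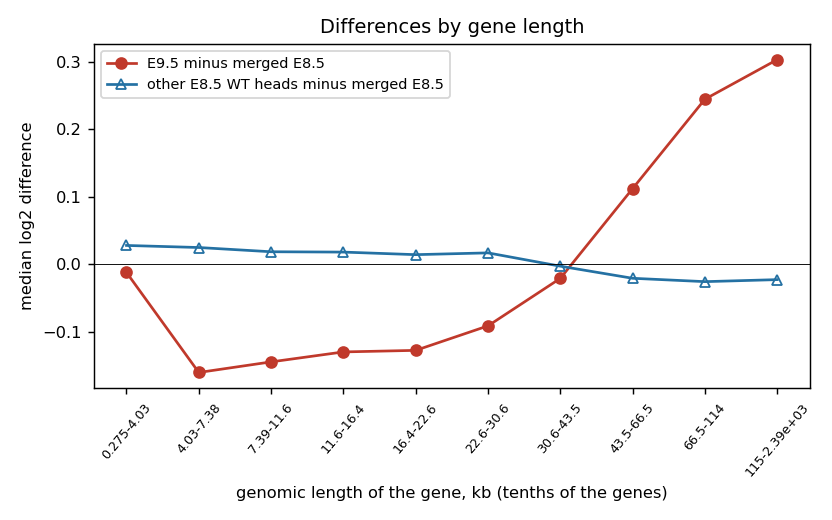
Median log2 difference (y axis) in 10 equal groups of genes by genomic length in kb (x axis). Red circles are E9.5 minus the merged E8.5 column and open triangles the other WT heads minus the same column. The red line is at -0.012 for the shortest genes, -0.16 for those from 4.03 to 7.38 kb and 0.30 for the longest, while the triangles stay between 0.03 and -0.03.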

How the data were processed

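RNA of WT heads was analysed from a deposited table in which the authors give FPKM, with 1 merged column per group. Per the submitters' processing notes, the tools named for these samples include TopHat2 (version 2.0.11) and Cufflinks (version 2.0.2), on build mm9. Their roles are not stated, and the notes of the first E8.5 sample list other tools as well. Read counts cannot be had from FPKM, and the depth of each library is unknown. Of 22592 rows, 22565 shared with the table of the other WT heads were used, and 27 with names turned into dates or repeated were dropped. A further 2 columns of no listed sample were not used. The E6.5 and E8.5 columns differ by at most 0.472% at equal rank, and the E9.5 column by up to 72.3%, so E9.5 values were replaced by the E8.5 values of the same rank. A gene was compared if 1 of its values reached 1 FPKM and neither was 0, and 1 small RNA row was left out. A gene low at 1 stage can thus enter through the other stage alone. The difference is that of log2(FPKM + 1), and a gene is counted at 2-fold. No test was planned or run, since each group has 1 column. The genes named are the 15 largest differences in each direction, for genes reaching 5 FPKM at either stage, past 2-fold as deposited and against both other WT heads, and of each list up to 8 members with the largest differences at 5 FPKM or more, with the list's defining genes. Ldha, Pgam1, Gapdh, Pgk1, Mycn, the Hox and sex-linked genes, genes listed at 0 and members given for contrast were named after their values were seen. The 50 gene lists and the members were chosen with earlier results of these data known, and 8 of the lists (7 by symbol, and the ribosome biogenesis genes) after the table was opened. Promoter sequences are from RefSeq (GRCm38.p6), which matched 8695 of 10837 compared rows, for 8652 different genes. The alternatives were other scalings, pseudocounts, minimums and E8.5 columns. Python 3.11.15, pandas 2.3.3, numpy 2.4.6 and matplotlib 3.10.9 were used. The method was tested on simulated data, made from the E8.5 column with noise, some changed genes and a distortion of the kind that rank rescaling removes. The simulation held no effect of batch, gene length or row assignment, so it cannot speak to these. Methylation, chromatin and contact data were not analysed here. A few genes that the rule would name are not reported here.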

Additional observations from a re-analysis of the deposited data

How the results depend on the processing

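The count of genes at least 2-fold different was 2258, and between 2165 and 2743 under other scalings, other E8.5 columns, zeros kept, no minimum, length groups centred or rows of a RefSeq accession added to their gene. It was 1732 at a minimum of 5 FPKM and 1869 when all 3 E8.5 columns had to be passed. With a pseudocount of 0.1 it was 3308, and with a pseudocount of 5 it was 903, 447 of them higher and 456 lower. The upper quartile scale gave 1457 higher and 858 lower. In 5 results the sign turned. These were the median of immediate early and heat shock genes (0.0559 with the upper quartile), of heterochronic genes (-0.39 at a minimum of 5 FPKM), of Wnt genes (-0.00489 with no minimum) and of Shh genes (-0.0404 with length groups centred), and the difference of Crkl (0.12 with its accession row added). The cause was not tested. A further 9 list medians of less than 0.2 in size changed sign in some setting. Counted over pairs of a value and a setting, the differences of named genes stayed within 1 SD of the 3 E8.5 columns in 287 pairs and moved beyond it in 122. For list medians these were 315 and 297 pairs. Over all settings but that of all 3 E8.5 columns at once, the median of neurogenic factors ran from 0.69 to 3.23, of neuron structural genes from 0.18 to 1.047, of extracellular matrix genes from 0.21 to 1.25, of arch regulators from 0.24 to 1.92, of heart muscle genes from -2.60 to -0.68 (-0.48 with all 3), of midbrain and hindbrain regulators from -1.72 to -0.39, of hypoxia and glycolysis genes from -1.28 to -0.53 and of primed pluripotency genes from -1.44 to -0.60. With no minimum the median of imprinted genes was 0.19 and that of cell cycle exit genes 0.43. The settings with length groups, accession rows and all 3 E8.5 columns were chosen after seeing the data. No paired analysis was possible because the columns merge their replicates, and leaving out each replicate and the replicate block were not run for the same reason. The spread at E9.5 is unknown.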

Other observations

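Of 303 rows listed under a RefSeq accession in place of a symbol, 185 were matched to a gene that also has a row of its own. In 98 pairs 1 row reached 1 FPKM, and in 4 of them (Crkl, Crk, Prkaca and Zc3h11a) the rows were at least 2-fold apart in opposite directions between the stages. In the E6.5 epiblast, the genes at least 2-fold higher in E9.5 heads had a median of 3.17 FPKM, against 3.69 at E8.5 and 11.2 at E9.5. Those at least 2-fold lower had 11.7, 12.0 and 3.64, and the remaining 8579 had 8.63, 8.75 and 8.33. These comparisons share the E8.5 column, which also set the classes. Of p53 target genes, 2 of 13 were higher and 4 lower, with Bax at 125 and 26.0 FPKM. Proteasome genes had 1 of 36 higher and 2 lower, among them Psmd13 (65.6 and 14.4). Genes of the amino acid stress response had 1 of 15 higher and 2 lower, and those of the foregut 3 of 9 in each direction. Of the clustered protocadherin genes, 1 of 59 reached the minimum.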
